A study of Mus musculus with 12 samples.

Results

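Interferon-stimulated genes were followed in mouse islet preparations through 43 genes chosen by symbol, out of 24421 genes in the deposited count table. They comprise 5 transcription regulators (Irf1, Irf7, Irf8, Irf9, Stat2), 4 nucleic acid sensors (Ddx58, Ifih1, Dhx58, Zbp1), 11 antiviral effectors of the Ifit, Oas and Mx families, 10 GTPases of the Gbp and immunity-related families (Gbp2 to Gbp7, Igtp, Irgm1, Irgm2, Iigp1), the ubiquitin-like modifier Isg15 with its protease Usp18, and 11 other effectors such as Bst2, Ifitm3, Rsad2 and Cmpk2. All 43 passed the filter on low counts, as did 17411 genes in all. The question put to them was how they differed with Bmal1 genotype before and after streptozotocin, and whether the Ifit, Oas and Mx members moved as the GTPases did.

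Interferons are secreted proteins that act through receptor-bound JAK kinases. Type I and type III interferons activate a complex containing STAT2 and IRF9 that binds the interferon-stimulated response element, whereas the response to interferon gamma runs largely through the gamma-activated site. The induced proteins degrade or sequester viral RNA (Oas and Ifit families), block viral nucleocapsids or entry (Mx and Ifitm proteins), or attack vacuoles and membranes around intracellular microbes (the GTPases). In islets, interferon signatures are best known from autoimmune and virus-associated beta-cell injury.

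The study has 12 RNA-seq libraries in 6 groups of 2, which the labels call A and B. Control mice were Bmal1fl/fl and knockout mice were Bmal1fl/fl RIPCreERT/+, so every mouse carried floxed Bmal1 and the knockout mice in addition a Cre recombinase fused to the oestrogen receptor and driven by the rat insulin promoter. BMAL1 is a core transcription factor of the circadian clock. Streptozotocin (STZ) is a glucose-like toxin taken up by beta cells, given here at a submaximal dose, with citrate buffer as vehicle. Control and knockout islets were each collected 24 h after vehicle, 24 h after STZ and 4 wk after STZ. The vehicle libraries used here are all from 24 h, so a comparison of 4 wk with vehicle mixes treatment and time. Strain, sex, age, dose and any induction of the Cre are not given in the labels used here. Nor do the labels say that A and B came from separate animals: p-values then measure only how far these libraries spread, and that spread may be technical.

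Total estimated counts ran from 101772241 to 127207523 per library, with a read of 100 bases making about 1.33 counts. Levels are given below as CPM (counts scaled to library size, with TMM factors), library A first and then B, and differences as log2 fold changes with their standard error (SE) from edgeR. A gene is said to rise, fall or be called where its adjusted p was under 0.05. The gene for BMAL1, Arntl, was not lower over its whole length in knockout vehicle libraries (17.8 and 19.9 CPM, log2 1.14, adjusted p = 0.000238) than in control vehicle libraries (8.79 and 8.36 CPM). At 24 h after STZ it did not pass (8.88 and 9.43 CPM in knockout, 11.2 and 10.8 CPM in control; log2 -0.26, adjusted p = 0.0877), and at 4 wk it was lower in knockout (11.3 and 11.6 CPM against 20.6 and 20.4 CPM; log2 -0.84, adjusted p = 0.000548). The whole-gene level thus differed in direction between the conditions. Its exon 8 (chr7:113284999-113285156, mm10) had 1.56 to 1.99 times the transcript's mean coverage in the 6 control libraries and 0.627 to 1.37 times in the 6 knockout libraries, without overlap (which exon is floxed is not in the labels). Esr1, the gene of the oestrogen receptor, lay at 0.706 to 2.29 CPM in control and at 51.1 to 359 CPM in knockout libraries. The labels call the cells predominantly beta cells, yet 14 acinar genes took 10.3 to 32.4% of all counts and 12 beta-cell genes 1.97 to 15.8%.

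The promoters of members that carry the results are shown first, with the interferon-responsive elements they hold. RefSeq promoter windows (GRCm38.p6, 250 bases before to 50 bases after the start site) were found for 30 members. Entries are missing for Dhx58, Zbp1, Oas1b, Oas2, Mx1, Mx2, Gbp4, Gbp6, Iigp1, Usp18, Rtp4, Parp9 and Parp14. They were searched on both strands for the response element core, which reads GAAA, any 2 bases and GAAA, and for the gamma-activated site TTCNNNGAA. The 250 bases before the start are printed 5′ to 3′ on the gene's strand, with core matches (or their reverse complement, TTTC, any 2 bases and TTTC) and gamma-activated site matches in capitals. Ifit3 (chr19:34583279-34583528, plus strand) stands for the antiviral genes with 2 cores. Isg15 (chr4:156200819-156201068, minus strand) has 3 overlapping cores. Igtp (chr11:58199306-58199555, plus strand) stands for the GTPases with both elements side by side, and in Bst2 (chr8:71537473-71537722, minus strand) the elements overlap. Irf8 (chr8:120736108-120736357, plus strand) has 2 gamma-activated sites and no core in the window shown, while the window of a second Irf8 start (chr8:120738389-120738638) holds neither element. Rsad2 (chr12:26456453-26456702, minus strand) is shown because it holds a core yet was not higher in injured knockout islets.
Ifit3: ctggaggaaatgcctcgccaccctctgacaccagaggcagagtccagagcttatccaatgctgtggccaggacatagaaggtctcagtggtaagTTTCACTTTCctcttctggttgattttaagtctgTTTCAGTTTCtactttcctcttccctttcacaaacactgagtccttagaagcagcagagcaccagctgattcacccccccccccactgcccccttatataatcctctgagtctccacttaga
Isg15: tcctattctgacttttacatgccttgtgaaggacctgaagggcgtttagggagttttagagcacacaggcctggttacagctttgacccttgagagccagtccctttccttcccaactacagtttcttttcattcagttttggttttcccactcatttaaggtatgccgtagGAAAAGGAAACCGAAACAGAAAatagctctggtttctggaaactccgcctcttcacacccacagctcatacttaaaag
Igtp: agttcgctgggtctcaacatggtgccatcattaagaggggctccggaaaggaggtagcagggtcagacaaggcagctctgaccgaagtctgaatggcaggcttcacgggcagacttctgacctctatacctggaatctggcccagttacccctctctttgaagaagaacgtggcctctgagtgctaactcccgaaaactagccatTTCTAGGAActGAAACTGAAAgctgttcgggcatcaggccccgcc
Bst2: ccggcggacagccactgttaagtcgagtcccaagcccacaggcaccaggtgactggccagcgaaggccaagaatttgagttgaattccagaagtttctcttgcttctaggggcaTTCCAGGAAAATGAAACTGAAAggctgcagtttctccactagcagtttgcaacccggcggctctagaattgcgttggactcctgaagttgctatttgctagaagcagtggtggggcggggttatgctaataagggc
Irf8: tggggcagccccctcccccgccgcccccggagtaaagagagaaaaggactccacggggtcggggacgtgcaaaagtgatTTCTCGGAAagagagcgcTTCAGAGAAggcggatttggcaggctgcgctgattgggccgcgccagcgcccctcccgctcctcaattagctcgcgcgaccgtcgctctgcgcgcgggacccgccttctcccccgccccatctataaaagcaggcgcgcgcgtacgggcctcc
Rsad2: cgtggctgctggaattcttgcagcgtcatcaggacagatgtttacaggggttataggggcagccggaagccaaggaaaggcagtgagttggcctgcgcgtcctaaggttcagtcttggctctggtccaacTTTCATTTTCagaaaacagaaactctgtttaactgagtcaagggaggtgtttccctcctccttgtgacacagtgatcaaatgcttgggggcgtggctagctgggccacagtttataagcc

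A gene with several start sites was counted where any of its windows held a match. The core was present in 19 of the 30 members (63.3%) and in 3.99% of the 27025 genes of the promoter table. Its longer form, extended by CT at the 3′ end, was present in 11 members (36.7%) and in 0.303% of all genes. The gamma-activated site was found in 12 members (40%) and in 9.55% of all genes. All 7 GTPases with a promoter entry (Gbp2, Gbp3, Gbp5, Gbp7, Igtp, Irgm1, Irgm2) held the core and 4 of them also the gamma-activated site. No Mx member had an entry. Of the 7 Ifit and Oas members with an entry, 4 held the core and 2 the gamma-activated site. These matches describe letters in the window and say nothing on binding in these islets.

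**Figure D1:**
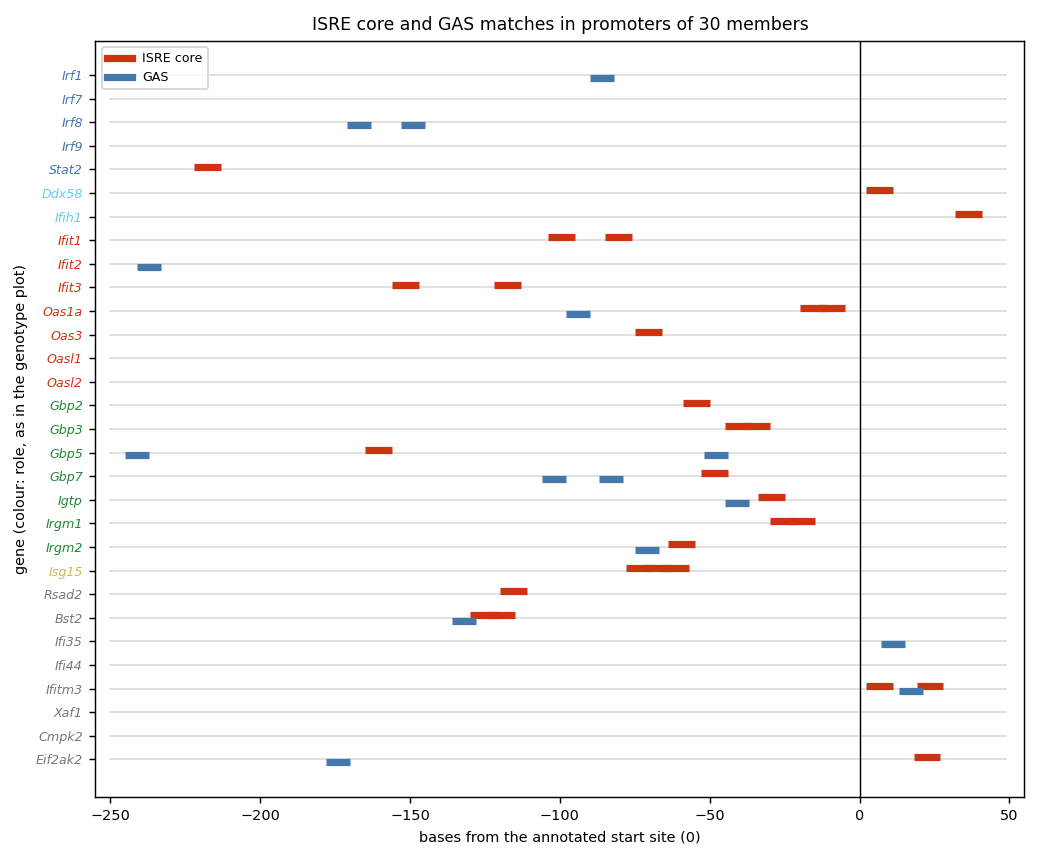
Positions of motif matches in the promoter windows of the 30 members with an entry. Each row is a gene, the x axis gives the distance from the annotated start site in bases, and bar colour separates the response element core (ISRE) from the gamma-activated site (GAS). Each of the 7 GTPases has at least 1 core, whereas 4 of the 7 Ifit and Oas genes do.

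Before injury, few interferon-stimulated genes separated knockout from control islets, a share near that of all genes tested. How many did depended on the fit. In vehicle libraries 2 members were higher and 2 lower in knockout, out of 43, while 9.64% of all genes tested were called (1.96% higher and 7.68% lower). The median log2 difference of the members was -0.15, against 0.00 for all genes tested. With scaling to total counts in place of TMM, the median of all genes moved to 0.53 and the members' median turned to 0.39, with 13 members higher and 1 lower. Under that scaling 6221 of all 17411 genes tested were higher and 984 lower. Of all called genes 86.3% were then higher, against 20.4% under TMM. The A-minus-B differences of the genotypes correlated at 0.36 under vehicle, and a block pairing A with A and B with B within each condition called 11 members, 4 higher and 7 lower, the 4 named next among them. Shares of all genes called under this block are not given here or below.

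The 2 members that were higher in knockout under vehicle are neighbours on chromosome 12 and are transcribed away from each other. Cmpk2 (chr12:26469215-26479837, plus strand) encodes a mitochondrial nucleotide kinase and Rsad2 (chr12:26442743-26456452, minus strand) encodes viperin, an antiviral radical SAM enzyme. Cmpk2 measured 35.8 and 38.8 CPM in control and 81.1 and 101 CPM in knockout vehicle libraries (log2 1.29, adjusted p = 0.000422). Rsad2 measured 15.8 and 16.3 CPM in control and 23.6 and 27.2 CPM in knockout (log2 0.66, adjusted p = 0.0234). Neither pair of libraries overlapped. The 2 members that were lower were Gbp6 (log2 -0.97, adjusted p = 0.00716) and Ifitm3, a protein that hinders virus entry (log2 -1.20, adjusted p = 0.00754). Ifitm3 lay at 27.7 and 23.7 CPM in control and at 13.0 and 9.44 CPM in knockout. Gbp6, Ifitm3 and Rsad2 each lost the call when a particular library was left out. No Ifit, Oas or Mx member and no regulator or sensor was called in this fit, with adjusted p of at least 0.101. Other fits called some of them. Total-count scaling put Mx2 (log2 0.999, adjusted p = 0.00779), Oasl2 (0.61), Ifih1 (0.58), Stat2 (0.47) and Irf1 (0.38) higher in knockout. The DESeq2 Wald test put Irf8 (log2 -0.87, adjusted p = 0.0308) and Ddx58 (log2 -0.35, adjusted p = 0.0438) lower, as did the block within each condition.

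At 24 h after STZ the picture was different. Of the 43 members, 39 were higher in knockout than in control islets and none was lower, on a background in which 43% of all genes tested were called (23.7% higher and 19.4% lower). The median log2 difference of the members was 1.58, that of all genes tested 0.00. Higher in knockout were 5 of 5 regulators, 4 of 4 sensors, 11 of 11 Ifit, Oas and Mx members and 10 of 10 GTPases. With total-count scaling, which moved the median of all genes to -0.24, 37 members were higher and 3 lower (Usp18, Rsad2 and Cmpk2). Among all 17411 genes tested 3318 were then higher and 5183 lower, and 39% instead of 55% of all called genes were higher.

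**Figure D2:**
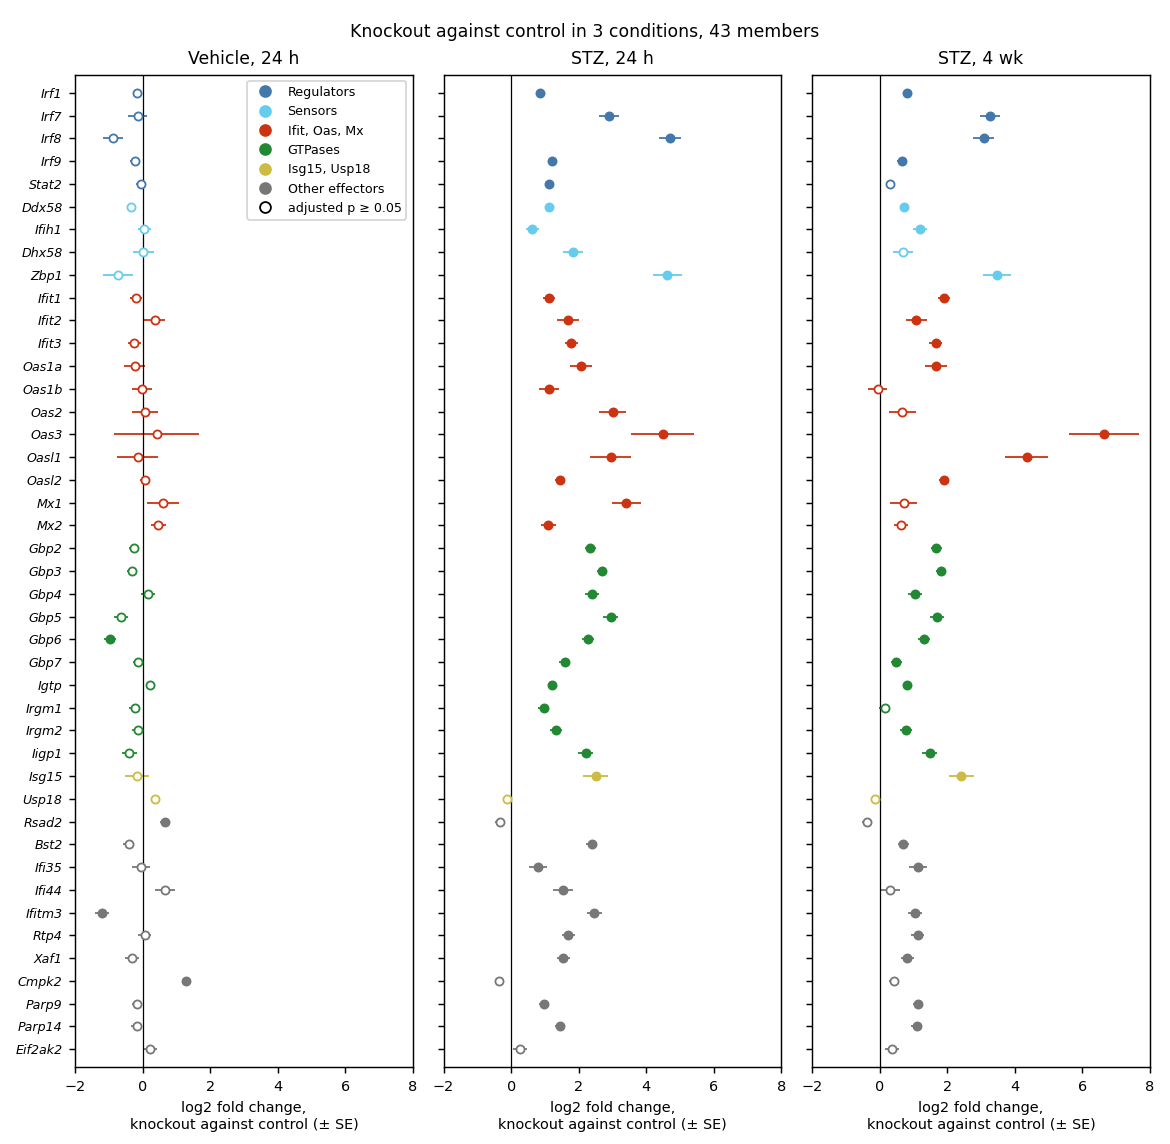
Log2 fold change of each of the 43 members between knockout and control islets under vehicle, 24 h after STZ and 4 wk after STZ, ordered by role. Points are edgeR estimates from 2 libraries against 2, bars are ± 1 SE, and filled points have an adjusted p under 0.05: 4 members are filled under vehicle, 39 at 24 h and 31 at 4 wk.

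Among the regulators, Irf8 differed most. It encodes an interferon-inducible factor that is also expressed constitutively in myeloid and B cells. Irf8 measured 1.94 and 2.10 CPM in control libraries at 24 h after STZ and 51.3 and 54.6 CPM in knockout libraries (26.2-fold, log2 4.71, SE 0.32, adjusted p = 1.05e-05). In control vehicle libraries it lay at 2.69 and 1.74 CPM and in knockout vehicle libraries at 1.28 and 1.13 CPM. Both injured knockout libraries thus stood apart from every other library of that time. Irf7, the factor that amplifies type I interferon production, lay at 3.73 and 4.15 CPM in control and at 27.3 and 31.7 CPM in knockout (log2 2.91, SE 0.29). Irf9 and Stat2, which encode subunits of the type I complex, differed by less. Irf9 lay at 14.5 and 15.2 CPM in control and at 35.2 and 33.8 CPM in knockout (log2 1.22). Stat2 lay at 21.8 and 22.7 CPM in control and at 49.1 and 47.2 CPM in knockout (log2 1.12). Irf1, a first-wave factor of the interferon response, was higher by 0.86 on the log2 scale.

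The sensors recognise foreign or displaced nucleic acid. Zbp1, a sensor of Z-form nucleic acid that can trigger necroptosis, lay at 0.842 and 0.401 CPM in control and at 14.7 and 16.02 CPM in knockout (log2 4.63, SE 0.44, adjusted p = 6.01e-05). Dhx58, which encodes the regulatory helicase LGP2, was higher by 1.83 on the log2 scale. Ddx58, which encodes RIG-I, was higher by 1.12, and Ifih1, which encodes MDA5, by 0.63 (adjusted p = 0.0313). Ifih1 had the smallest difference of the 4. It lost its call without any 1 of the 4 libraries compared, as did Ifi35 among the other effectors, while Oas1b lost its call without particular ones.

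The antiviral effectors differed over a wide range, from 1.10 (Mx2) to 4.49 (Oas3) on the log2 scale, with a median of 1.78. Ifit1 and Ifit3 encode proteins that bind viral RNA. Ifit1 lay at 4.93 and 5.01 CPM in control and at 10.9 and 10.7 CPM in knockout (log2 1.12, SE 0.17). Ifit3 lay at 4.97 and 5.42 CPM in control and at 18.6 and 17.1 CPM in knockout (log2 1.78, SE 0.19). Oasl2, an oligoadenylate synthetase-like gene, had the smallest adjusted p of the group: 9.15 and 8.62 CPM in control, 24.2 and 24.2 CPM in knockout (log2 1.44, SE 0.15, adjusted p = 8.12e-05). Oas3 had the largest difference of the group and few counts in control islets. It makes the 2′-5′ oligoadenylates that activate RNase L, and had 27 and 23 counts in control and 418 and 544 counts in knockout. Mx1, a dynamin-like GTPase that blocks influenza viruses, lay at 0.395 and 0.617 CPM in control and at 5.80 and 5.03 CPM in knockout (log2 3.41, SE 0.44). Oas2 (3.003) and Oasl1 (2.95) followed. Of the 75-base stretches of Ifit3 exons 41.1% also occur in Ifit3b, and 47.6% of those of Oas1a occur in Oas1g, so the values of Ifit3 and Oas1a (2.07) are uncertain.

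The log2 differences of the GTPases ran from 0.97 (Irgm1) to 2.94 (Gbp5), with a median of 2.24. Guanylate-binding proteins coat pathogen vacuoles and promote inflammasome activation, and the immunity-related GTPases act on the same membranes. Gbp3 had the smallest adjusted p of all 43 members: 4.77 and 5.30 CPM in control, 33.7 and 30.9 CPM in knockout (6.41-fold, log2 2.68, SE 0.15, adjusted p = 3.78e-06). Gbp2 lay at 7.65 and 8.11 CPM in control and at 40.6 and 39.1 CPM in knockout (log2 2.34). Iigp1 lay at 23.9 and 23.1 CPM in control and at 118 and 99.8 CPM in knockout (log2 2.21). Igtp, which encodes Irgm3, lay at 13.6 and 13.8 CPM in control and at 32.1 and 31.0 CPM in knockout (log2 1.21), and Irgm2 differed by 1.33. In all 10 GTPases the knockout libraries lay above the control libraries. The share of all genes whose libraries parted in this way is not given here. Gbp6 is uncertain, since 86% of its 75-base stretches also occur in the gene model Gm43302. Gbp7, at 11.4%, and Igtp, at 8.37%, share fewer.

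Isg15 and the remaining effectors were less uniform. Isg15, the modifier that is conjugated to newly made proteins, lay at 1.25 and 1.55 CPM in control and at 7.59 and 8.20 CPM in knockout (log2 2.50, SE 0.36, adjusted p = 0.000618). Its protease Usp18 did not follow, with 17.6 and 17.3 CPM in control and 16.5 and 15.6 CPM in knockout (log2 -0.12, adjusted p = 0.396). Among the 11 other effectors 8 were higher. Bst2, which tethers budding virions to the cell, lay at 9.09 and 8.84 CPM in control and at 47.4 and 46.5 CPM in knockout (log2 2.39, adjusted p = 1.01e-05). Ifitm3 lay at 29.1 and 29.2 CPM in control and at 156 and 166 CPM in knockout (log2 2.47). Both separated the genotypes by a wide margin. The 4 members that were not called were Usp18, Rsad2 (log2 -0.32, adjusted p = 0.117), Cmpk2 (log2 -0.36, adjusted p = 0.0624) and Eif2ak2, which encodes the RNA-activated kinase PKR (log2 0.26, adjusted p = 0.352). In Usp18, Rsad2 and Cmpk2 both knockout libraries lay below both control libraries.

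**Figure D3:**
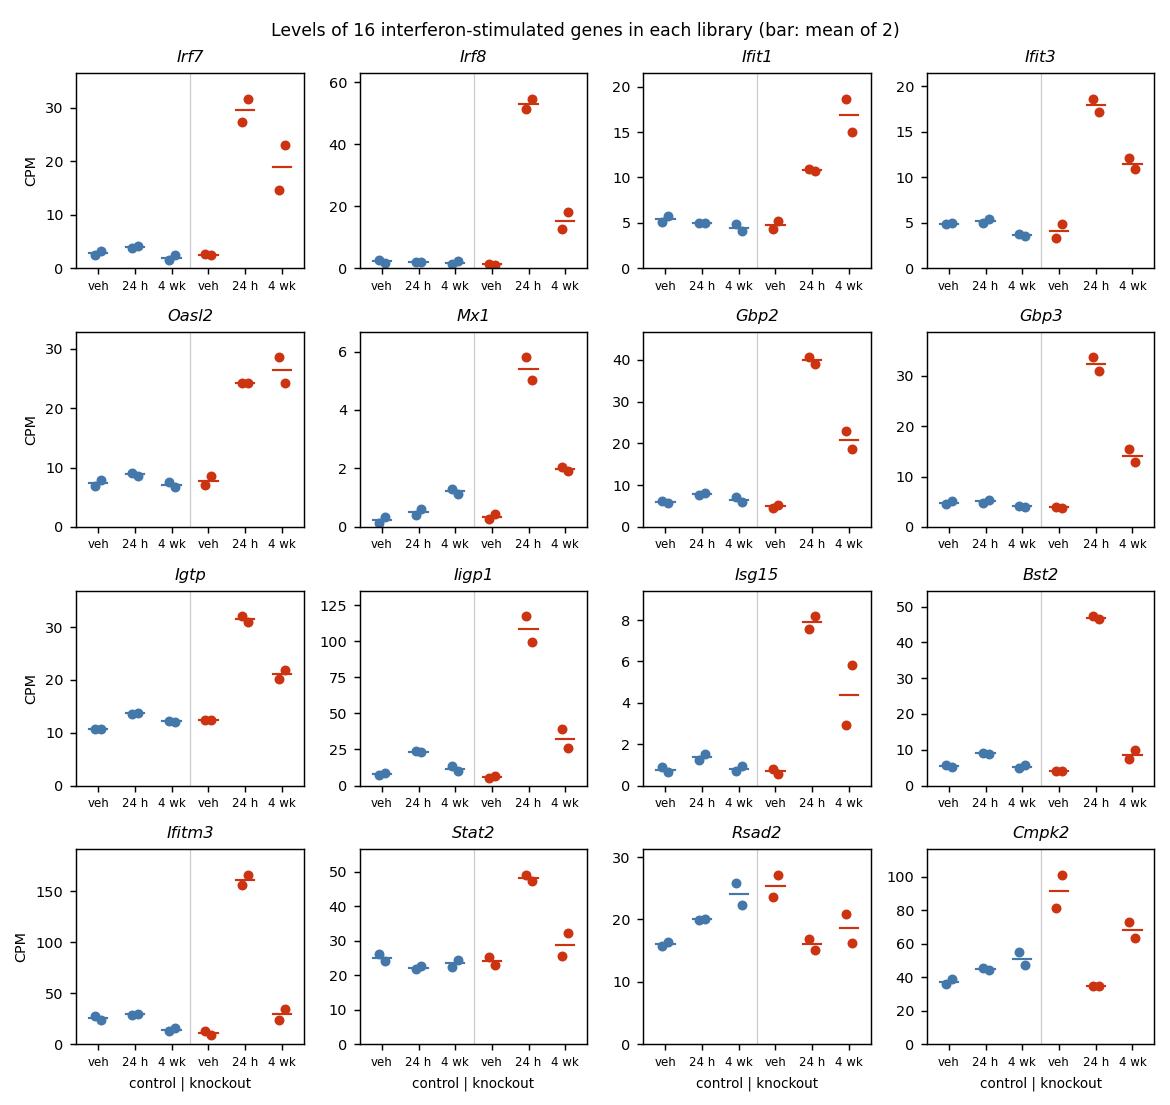
Levels of 16 members in each of the 12 libraries, in CPM after TMM scaling. Each panel is a gene, blue points are control and red points knockout libraries, and the bar is the mean of 2 libraries. Irf8 reaches 51.3 and 54.6 CPM in knockout at 24 h after STZ, while Rsad2 and Cmpk2 lie highest outside that group.

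By 4 wk after STZ, 31 of the 43 members were still higher in knockout than in control islets and none was lower. The background was 27.8% of genes called, 19.9% higher and 7.89% lower. All 31 were among the 39 of the earlier time, an overlap for which the share over all genes is not given here. The members' median was 1.05, that of all genes tested 0.01. Total-count scaling gave 30 higher and 1 lower (Rsad2). It made 3194 of all 17411 genes tested higher and 2037 lower, with 61.1% instead of 71.6% of all called genes higher. A fit of only the 4 libraries compared called 16 members, all of them higher. The share of all genes called in that fit is not given here, so this count does not set the members apart.

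Among the regulators, Irf7 lay at 1.52 and 2.43 CPM in control at 4 wk and at 14.7 and 23.1 CPM in knockout, a log2 difference of 3.25 (SE 0.30, adjusted p = 6.81e-05). Irf8 lay at 1.38 and 2.24 CPM in control and at 12.6 and 18.1 CPM in knockout (log2 3.08). Stat2 did not pass, at 22.3 and 24.5 CPM in control and 25.6 and 32.1 CPM in knockout (log2 0.30, adjusted p = 0.118). Zbp1 remained the sensor with the largest difference (log2 3.47), and Dhx58 did not pass (0.69, adjusted p = 0.126).

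The 4 wk differences split the antiviral effectors. Of 11, 7 were higher: Ifit1, Ifit2, Ifit3, Oas1a, Oas3, Oasl1 and Oasl2. Oas3 had 11 and 11 counts in control and 870 and 1176 counts in knockout (log2 6.64, SE 1.05, adjusted p = 0.00155), the largest difference of any member. Oasl2 measured 7.53 and 6.71 CPM in control and 28.6 and 24.3 CPM in knockout (log2 1.89, SE 0.15, adjusted p = 2.72e-05). Ifit1 measured 4.90 and 4.06 CPM in control and 18.7 and 15.0 CPM in knockout (log2 1.91). Both Mx genes, Oas1b and Oas2 were not called: Mx1 lay at 1.29 and 1.14 CPM in control and at 2.06 and 1.92 CPM in knockout (log2 0.71, adjusted p = 0.241). The libraries of Mx1 did not overlap, but its SE was 0.40. Oas2 lay at 0.887 and 0.677 CPM in control and at 1.31 and 1.18 CPM in knockout, inside the range of the knockout vehicle libraries (1.42 and 0.899 CPM). The median of the 11 was 1.66.

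Of the 10 GTPases, 9 were higher at 4 wk, with a median of 1.18. Gbp3 measured 4.07 and 4.03 CPM in control and 15.4 and 12.9 CPM in knockout (log2 1.81, SE 0.14, adjusted p = 2.7e-05). Gbp2 measured 7.17 and 5.85 CPM in control and 22.9 and 18.6 CPM in knockout (log2 1.67). Irgm1 was the exception, with overlapping libraries (23.8 and 19.0 CPM in control, 26.7 and 20.7 CPM in knockout; log2 0.15, adjusted p = 0.574). Isg15 was higher in knockout (log2 2.42, adjusted p = 0.00119) although its knockout libraries, at 2.92 and 5.81 CPM, differed from each other. Bst2 (0.70) and Ifitm3 (1.04) were called too, though Bst2, Ifitm3, Gbp7, Irgm2, Ifit2, Ifi35 and Xaf1 each lost the call when a particular library was left out. Usp18, Rsad2, Cmpk2, Eif2ak2 and Ifi44 were not called.

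Within control islets STZ moved few members, a share near that of all genes tested at both times. At 24 h 2 rose and 1 fell, on a background of 7.56% of genes called (5.41% higher and 2.15% lower), and the members' median was 0.18. Iigp1 rose from 7.48 and 8.54 to 23.9 and 23.1 CPM (log2 1.55, adjusted p = 0.00255), and Bst2 rose by 0.72 (adjusted p = 0.0256). Gbp6 fell by 0.89 on the log2 scale. At 4 wk against vehicle 2 rose and 2 fell, with 8.99% of genes called (4.98% higher and 4.01% lower). Mx1 rose from 0.120 and 0.341 to 1.29 and 1.14 CPM (log2 2.40, adjusted p = 0.0116) and Rsad2 by 0.59, while Gbp6 fell by 0.996 and Ifitm3 by 0.85. For 37 of the 43 members no call was made in either comparison, and the share of all genes called in neither is not given here. The calls of Bst2 and Gbp6 at 24 h and of Rsad2 and Ifitm3 at 4 wk were lost without any 1 of the 4 libraries compared, and that of Mx1 without control vehicle library A. Total-count scaling moved the median of all genes to 0.33 and 0.41 in these comparisons and gave 8 members higher and none lower at 24 h, and 9 higher and 1 lower at 4 wk. It made 2408 of all 17411 genes tested higher and 226 lower at 24 h, and 3852 higher and 455 lower at 4 wk. The block within each condition called 6 higher and 1 lower at 24 h, and 7 higher and 4 lower at 4 wk. Of all called genes under total-count scaling 91.4% instead of 71.5% were higher at 24 h, and 89.4% instead of 55.4% at 4 wk.

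Within knockout islets STZ moved nearly all of them. At 24 h 39 members rose and 2 fell, against a background of 56.4% of genes called (30.1% higher and 26.2% lower). The median was 1.64 for all members, 2.13 for the Ifit, Oas and Mx members and 2.32 for the GTPases. Zbp1 rose by 5.97, Oas3 by 5.84, Irf8 by 5.46 and Iigp1 by 4.15. Rsad2 fell from 23.6 and 27.2 to 16.9 and 15.2 CPM (log2 -0.66) and Cmpk2 from 81.1 and 101 to 35.0 and 34.8 CPM (log2 -1.38). Against injured control islets at 24 h neither gene of this pair was called in knockout (log2 -0.36 for Cmpk2 and -0.32 for Rsad2). For each gene both knockout libraries still lay below both control libraries, which were at 45.4 and 44.2 CPM for Cmpk2. Total-count scaling called both lower in knockout (log2 -0.61 for Cmpk2 and -0.57 for Rsad2). At 4 wk against vehicle 31 members rose and 2 (Rsad2 and Cmpk2) fell, with 35.9% of genes called (24.1% higher and 11.7% lower). Under total-count scaling the counts became 35 higher and 3 lower at 24 h (35.1% of all called genes higher instead of 53.5%) and 29 higher and 3 lower at 4 wk (45.4% instead of 67.2%). Of all 17411 genes tested 4085 were then higher and 7563 lower at 24 h, and 3667 higher and 4409 lower at 4 wk.

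The change from vehicle to STZ was then compared between genotypes in the same model. At 24 h 33 members rose more in knockout than in control and 3 (Usp18, Rsad2, Cmpk2) moved the other way, with 37.7% of genes called (21.1% higher and 16.6% lower). The difference of the changes was 5.59 for Irf8, 3.25 for Gbp6 and 3.004 for Gbp3. At 4 wk the counts were 29 and 3, with 26.1% of genes called (18.7% higher and 7.35% lower). Total-count scaling lowered the number that rose more to 25 at 24 h and 18 at 4 wk, the number moving the other way staying at 3 at both times. It made 2436 of all 17411 genes tested higher and 7708 lower at 24 h, and 2371 higher and 5832 lower at 4 wk. Of all called genes it made 24% higher at 24 h instead of 56.1%, and 28.9% at 4 wk instead of 71.8%. These comparisons share their vehicle libraries with those above. The call of Usp18 at 24 h was lost without any 1 of the libraries.

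The calls of the families differed between 24 h and 4 wk in knockout islets. All 10 GTPases fell, with a median of -1.01, whereas of the 11 Ifit, Oas and Mx members 4 fell, 1 rose and 6 were not called, with a median of -0.64. The SEs ran from 0.10 to 0.22 in the GTPases and from 0.15 to 0.77 in the antiviral members, so calls do not compare the families evenly. Ifit2 (-0.75) and Oas1a (-0.72) were not called, although Igtp was at -0.58. Both libraries lay lower at 4 wk in 7 of the 11 and higher in 3. Of all 43 members 25 fell and 2 rose, and of all genes tested 35.7% were called (15.5% lower and 20.2% higher). The median of all members was -0.74 and that of all genes 0.10. Total-count scaling left 20 members lower and 5 higher, the 10 GTPases among the former. It made 2074 of all 17411 genes tested lower and 5285 higher, with 71.8% instead of 56.5% of all called genes higher. This difference between the families was not tested. The scaled medians were -0.78 for the GTPases and -0.41 for the Ifit, Oas and Mx members.

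Iigp1 fell from 118 and 99.8 to 39.0 and 26.2 CPM (log2 -1.74, SE 0.22, adjusted p = 0.000442) and Gbp3 from 33.7 and 30.9 to 15.4 and 12.9 CPM (log2 -1.19, adjusted p = 0.000265). Igtp, with the smallest fall of the group, went from 32.1 and 31.0 to 20.2 and 21.9 CPM (log2 -0.58). Each GTPase lay lower in both 4 wk libraries than in both 24 h libraries, a separation for which the share of all genes is not given here. Among the antiviral members Oas2 fell from 11.6 and 9.95 to 1.31 and 1.18 CPM (log2 -3.11, adjusted p = 0.00048). Mx1 (-1.44), Oas1b (-1.02) and Ifit3 (-0.64) fell too. The call of Mx1 was lost without any 1 of the libraries, and those of Oas1b, Ifit3 and Ifit1 without particular ones, while none of the GTPases lost its call. Within the Oas family the neighbours Oas2 (chr5:120730333-120749848) and Oas3 (chr5:120753098-120777659) parted: Oas3 measured 4.30 and 5.20 CPM at 24 h and 7.98 and 9.19 CPM at 4 wk (log2 0.85, adjusted p = 0.435). Oasl2, at 24.2 and 24.2 and then 28.6 and 24.3 CPM, was level (log2 0.13).

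Ifit1 was the antiviral member that rose again, from 10.9 and 10.7 to 18.7 and 15.0 CPM (log2 0.64, adjusted p = 0.018). Its neighbour Ifit1bl2, a related gene, went from 5.72 and 5.12 to 110 and 85.0 CPM at the same time. Of the 75-base stretches of Ifit1 exons 5.19% also occur in Ifit1bl2, and the part of such reads in the Ifit1 value was not tested. Among the other members, Ifitm3 went from 156 and 166 to 23.9 and 34.5 CPM (log2 -2.46), Bst2 from 47.4 and 46.5 to 7.29 and 9.92 CPM (log2 -2.45) and Irf8 from 51.3 and 54.6 to 12.6 and 18.1 CPM (log2 -1.79). Irf7 (-0.64, adjusted p = 0.0983) and Isg15 (-0.85, adjusted p = 0.0845) did not pass. Cmpk2 rose by 0.97, to 73.1 and 63.2 CPM.

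**Figure D4:**
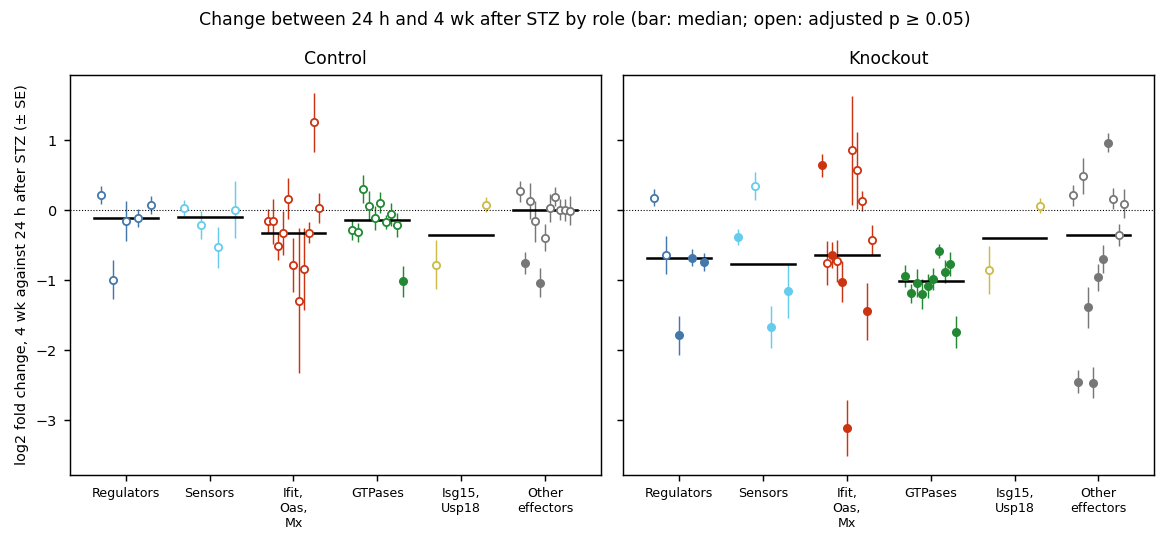
Log2 fold change between 4 wk and 24 h after STZ for each of the 43 members, grouped by role, in control and in knockout islets. Each point is a gene from 2 libraries against 2 and the horizontal bars are medians of a role: in knockout islets the 10 GTPases have a median of -1.01 and the 11 Ifit, Oas and Mx members of -0.64.

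In control islets 3 members fell between 24 h and 4 wk (Iigp1 by 1.02, Bst2 by 0.76 and Ifitm3 by 1.03) and none rose, with 5.49% of genes called (1.27% higher and 4.22% lower). The block within each condition called 6 lower and 1 higher. Tested as a difference between genotypes, the change from 24 h to 4 wk was more negative in knockout for 12 members and more positive for 1 (Cmpk2, 0.77), with 13.9% of genes called (8.79% higher and 5.09% lower). The 12 were 6 GTPases (Gbp3, Gbp4, Gbp5, Gbp6, Gbp7, Irgm1), Mx1, Oas2, Irf8, Stat2, Bst2 and Ifitm3. These calls were fragile: without control STZ 24 h library A a single member was called, and 3 without library B of that group. Without knockout STZ 24 h library A or B 2 were called, and 8 without control STZ 4 wk library A. DESeq2 size factors gave 13 lower and none higher, with 52.8% instead of 63.3% of all called genes higher, and total-count scaling 10 lower and 2 higher, with 76%. Among all 17411 genes tested, DESeq2 size factors made 1076 lower and 1203 higher, and total-count scaling 678 lower and 2144 higher. The block within each condition called 28, of which 23 were lower and 5 higher.

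The gap between families can also be read within each library, as the mean log2 CPM of the 11 antiviral members minus that of the 10 GTPases (pseudocount 0.5 CPM). It lay between -2.20 and -1.86 in the 6 control libraries. In knockout islets it was -1.75 and -1.96 after vehicle, -2.14 and -2.08 at 24 h after STZ, and -1.72 and -1.39 at 4 wk. The gap at 24 h was inside the control range, while both 4 wk knockout libraries and knockout vehicle library A lay above it. Per transcript length, in the deposited TPM, the antiviral members had a median of 0.891 and the GTPases of 3.08 in control vehicle islets. In knockout islets the level medians were 5.07 and 17.1 TPM at 24 h and 4.35 and 11.4 TPM at 4 wk. Iigp1 was the highest GTPase at both times (46.5 and 18.1 TPM). Ifit3 led the antiviral members at 24 h (11.6 TPM) and Oasl2 at 4 wk (14 TPM), and Ifitm3 was the highest of all 43 members at 24 h, at 322 TPM.

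The ligands of the pathway were nearly absent from the counts. Among 21 interferon genes, 18 had 0 counts in every library, Ifnb1 and all 13 listed Ifna genes among them. A count of 0 allows up to 3 read pairs, which make 8 counts, or 0.0577 to 0.091 CPM by library, for counting error only. Ifng, which encodes interferon gamma, had 35 and 18 counts in knockout libraries at 24 h after STZ and 20 and 9 counts at 4 wk, and 0 in the other 8 libraries. It was called against control at 24 h (adjusted p = 0.0232) and not at 4 wk (adjusted p = 0.0528).

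Receptors and kinases were higher in the same islets. Under vehicle none of 9 was called, at 24 h after STZ 8 of 9 were higher in knockout and at 4 wk 7 of 9, with none lower. Of all genes tested 23.7% and 19.9% were higher at these times. Ifngr1, the ligand-binding chain of the interferon gamma receptor, lay at 24.5 and 23.3 CPM in control and at 74.3 and 71.1 CPM in knockout at 24 h (log2 1.61), and differed by 1.24 at 4 wk. Ifnar1, a chain of the type I receptor, was higher by 0.71 and 0.43 at the respective times, and Ifngr2 by 1.47 and 2.40. Jak1, the kinase shared by both receptors, was called at 24 h (0.94) and not at 4 wk (-0.34).

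Of 9 signalling factors 5 were higher and 1 lower at each time, where 19.4% and 7.89% of all genes tested were lower. Irf4 and Irf5, factors of lymphoid and myeloid cells, were among those higher. The log2 difference of Irf4 was 5.70 at 24 h and 4.49 at 4 wk, and that of Irf5 was 3.09 and 1.70. Of 5 feedback inhibitors, Socs3 (1.61) and Ptpn6 (1.66) were higher at 24 h and none was called at 4 wk, where 23.7% and 19.9% of all genes tested were higher. Socs1, the classical inhibitor of JAK kinases, stayed at or under 0.516 CPM in every library and was not called at 24 h (log2 1.65, adjusted p = 0.181).

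Of 11 genes that sense nucleic acid upstream of interferon, 8 were higher in knockout at 24 h and 6 at 4 wk. The shares of all genes tested that were higher were 23.7% and 19.9%. Tmem173, which encodes STING, lay at 2.41 and 2.59 CPM in control and at 39.5 and 41.9 CPM in knockout at 24 h (log2 4.02), and differed by 2.13 at 4 wk. Tlr7 (3.51 and 2.24) and Tlr9 (3.57 and 1.57), endosomal receptors of dendritic and B cells, were higher at both times. Of 18 tested paralogs of the member families 15 were higher at 24 h and 14 at 4 wk, against the same shares of all genes. Gbp2b differed most at 24 h, with 0.0877 and 0.112 CPM in control and 21.9 and 20.6 CPM in knockout (log2 7.71).

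The same knockout libraries held more RNA of immune cells. At 24 h after STZ all 18 macrophage markers, 8 of 9 dendritic cell markers, all 14 T and NK cell markers, all 7 B and plasma cell markers and all 7 tested neutrophil markers were higher in knockout than in control. At 4 wk these counts were 17, 6, 14, 6 and 4. Among all genes tested 23.7% were higher at 24 h and 19.9% at 4 wk. Under vehicle none of these markers was higher, where 1.96% of all genes tested were. The summed macrophage level was 234 and 229.5 CPM in control and 1916 and 1916 CPM in knockout at 24 h, and 139 and 152.1 against 503.2 and 567.7 CPM at 4 wk. Within control islets it stood at 121 and 114.7 CPM after vehicle, and 6 of the 18 markers rose from there to 24 h after STZ. In that comparison 5.41% of all genes tested rose. T and NK cell markers summed to 0.907 to 2.63 CPM in the 8 control and knockout vehicle libraries and to 111.7, 106.1, 85.6 and 76.39 CPM in the 4 injured knockout libraries. Cd5 was at 0 in all of the former, and Cd3d in all but control at 4 wk.

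B and plasma cell markers summed to 3.51 to 58.5 CPM in control and knockout vehicle libraries, with Pax5 at 0 in all of these but control vehicle. They summed to 835.1 and 777.3 CPM in knockout at 24 h and to 1597 and 1048 CPM at 4 wk, of which Jchain made up 1581 and 1026 CPM. Dendritic cell markers summed to 5.83 to 11.35 CPM in those 8 libraries, and to 83.9 and 85.5 CPM in knockout at 24 h and 47.2 and 44.2 CPM at 4 wk. The members themselves summed to 465.8 to 549.9 CPM in the 8 libraries, to 1436 and 1378 CPM in knockout at 24 h and to 940 and 885.2 CPM at 4 wk. On average over both libraries, the macrophage sum of injured knockout islets went from 1916 to 535.4 CPM between the times and the members' sum from 1407 to 912.6 CPM.

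Other tissues moved as well. The shares of all genes tested were 23.7% higher and 19.4% lower in knockout at 24 h, and 19.9% and 7.89% at 4 wk. The beta-cell list was lower in knockout for 11 of 12 genes at 24 h and 10 of 12 at 4 wk. Of 10 intestinal genes 9 were higher at 24 h and 10 at 4 wk, when they summed to 8987 and 7935 CPM in knockout and 280 and 277 CPM in control. Of 6 liver genes 5 were higher at each time. Of 8 fibroblast and stellate cell genes 5 were higher at each time, among them Pdgfra, a receptor of mesenchymal cells (log2 2.35 and 3.03). Rgs5 of this list was lower at 24 h (log2 -0.39, adjusted p = 0.0394). The 8 genes summed to 476.3 and 478.6 CPM in control and to 1157 and 1150 CPM in knockout at 24 h. Of 9 endothelial genes 5 were higher and 1 lower at 24 h, with Cldn5, a tight junction protein, at 3.69, and 1 was higher and 1 lower at 4 wk. Of 6 alpha-cell genes 3 were lower and 2 higher at 24 h, Gcg, which encodes glucagon, being lower by 1.46, and at 4 wk 2 were higher. Acinar genes were lower in knockout under vehicle for 14 of 14, where 7.68% of all genes tested were lower. They were higher at 24 h for 9 of 14. In such bulk samples more cells of a type and more RNA per cell cannot be told apart. The part of immune, stromal, intestinal or liver RNA in the interferon-stimulated genes was not tested.

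**Figure D5:**
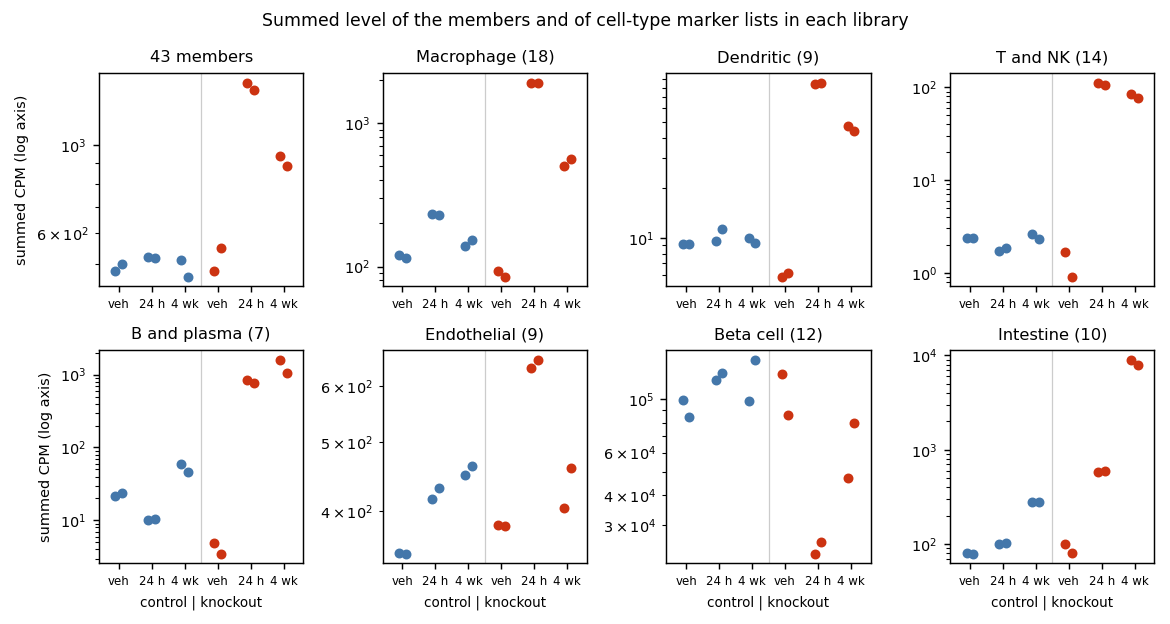
Summed level of the 43 members and of the marker lists of macrophages, dendritic cells, T and NK cells, B and plasma cells, endothelium, beta cells and intestine in each library, in CPM on a log axis. Points are libraries A and B of each group. The macrophage sum reaches 1916 CPM in both knockout libraries at 24 h after STZ, where the members reach 1436 and 1378 CPM.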

How the data were processed

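Islet RNA of 12 libraries was sequenced from stranded mRNA kits as paired reads, per the labels' protocols. The authors deposited a gene table of estimated counts (expected counts, unscaled) and 1 transcript file per library with coverage (signal, the mean depth per base) and TPM, made with StringTie 1.3.6 on mm10, per the file headers and the submitters' processing notes. A name for the aligner was not given in the sources used here. Each transcript's count could be rebuilt from its coverage and length with a divisor of 75 bases (rounding up), whereas the labels give reads of 100 bases, so counts exceed reads; intervals and floors cover counting error only.

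Computed here: counts were taken as whole numbers, genes kept by filterByExpr (17411 of 24421), scaled by TMM (factors 0.8255 to 1.213) and tested in edgeR 4.0.16 (R 4.3.3) with the robust quasi-likelihood test, two-sided, in 1 fit of 6 group means over all libraries (6 residual degrees of freedom, common dispersion 0.0493). Adjusted p-values are Benjamini-Hochberg over all tested genes within a comparison, with a threshold of 0.05. The script was tested on simulated data. CPM use TMM-scaled library sizes. Gene coordinates come from the transcript files in mm10; promoters come from RefSeq (GRCm38.p6), searched with Python 3.11.15. Shared 75-base stretches were found in the exons of the reference annotation.

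Groups follow the genotype, treatment and time labels. A and B of a group differed by far more than counting noise (chi-square over degrees of freedom 24.5 or more). The labels name no litter, batch or day for the letters A and B, and the tests as reported have no block; differences of A from B correlated, over genes, between genotypes at 0.36 (vehicle), 0.15 (24 h) and 0.78 (4 wk), and between conditions from -0.7 to 0.47. Any of the 43 genes may be named; full statistics go to the largest change and the smallest adjusted p of each role and to members that do not pass or go against their role, with fixed genes shown per library. Members, lists and tests were chosen with earlier results of these data known, and the intestine and liver lists after seeing the data. Rsad2, Cmpk2, Usp18, Oas2, Oas3 and Zbp1 were added to the genes shown per library after their values were seen. Alternatives were DESeq2 1.42.0 size factors and Wald test, total-count scaling, no filter, a block for the letters A and B (over all groups, or within each condition), only the libraries compared, and leaving out each library.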

Additional observations from a re-analysis of the deposited data

Results flagged for a closer look

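The effect of STZ on the members differed between genotypes in the interaction test of edgeR, which compares the change in knockout with the change in control. From vehicle to 24 h, 36 of 43 members differed, 33 higher and 3 lower, where 37.7% of all genes tested did. The smallest adjusted p lay in Gbp3 (a difference of 3.004 on the log2 scale), Gbp6 (3.25) and Irf8 (5.59). From vehicle to 4 wk, 32 members differed, 29 higher and 3 lower, where 26.1% of all genes tested did. Gbp3 (2.13), Irf8 (3.96) and Gbp6 (2.27) led. From 24 h to 4 wk, 13 members differed, 1 higher and 12 lower, where 13.9% of all genes tested did. Bst2 (-1.69), Gbp7 (-1.09) and Ifitm3 (-1.43) led. The count from 24 h to 4 wk fell to 1 without control STZ 24 h library A. With total-count scaling 25 members were higher and 3 lower from vehicle to 24 h, and 18 higher and 3 lower from vehicle to 4 wk. That scaling made 2436 of all 17411 genes tested higher and 7708 lower from vehicle to 24 h. From vehicle to 4 wk it made 2371 higher and 5832 lower. Gbp6 shares 86% of its 75-base stretches with Gm43302 and is uncertain.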

How the results depend on the processing

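Each group has 2 libraries, and members with few counts have wide errors: Oas3, with 11 and 11 control counts at 4 wk, has an SE of 1.05. Members called when 1 library was left out ranged from 2 to 3 (knockout against control, vehicle), 36 to 37 (24 h after STZ) and 27 to 31 (4 wk); for STZ 24 h against vehicle 1 to 1 in control and 38 to 39 in knockout, for STZ 4 wk against vehicle 1 to 2 and 30 to 32, for 4 wk against 24 h 0 to 0 and 20 to 26; and for the interactions 33 to 35 (24 h), 25 to 31 (4 wk) and 1 to 13 (4 wk against 24 h). The 3 control falls between 24 h and 4 wk were lost without any 1 library. Total-count scaling called 14 members under vehicle, 8 in control at 24 h, 10 in control at 4 wk against vehicle and 21 in the 4 wk interaction. The counts of all genes under that scaling stand with these comparisons above. It turned the vehicle genotype differences of Irf1 to 0.38 and Stat2 to 0.47, the vehicle medians of all members to 0.39 and of GTPases to 0.28, the GTPase median of control 4 wk against vehicle to 0.23, and the Igtp interaction at 4 wk to -0.045. The DESeq2 Wald test called 8 members under vehicle, 5 for control 4 wk against 24 h and 22 in the last interaction. Fitting only the libraries compared called 2 under vehicle, 16 for genotype at 4 wk, 12 in control at 24 h and 0 in control at 4 wk against vehicle. The cause of these shifts was not tested. With the letter as a replicate block 2 members were called in control at 4 wk against vehicle. A block within each condition, chosen after seeing the data, called 11 under vehicle, 7 in control at 24 h, 11 in control at 4 wk against vehicle, 7 for control 4 wk against 24 h and 28 in the last interaction. Shares of all genes called are not given for the DESeq2 Wald test, the fits of only the libraries compared, the blocks and the left-out libraries. Member counts from these fits therefore do not set the members apart from all genes.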

Other observations

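Gvin1, a very large interferon-inducible GTPase gene of the paralog list (chr7:105895119-106215340), differed between libraries of the same group more than between groups. It measured 0.175, 0.123 and 0.147 CPM in library A of control STZ 24 h, knockout STZ 24 h and knockout STZ 4 wk, and 11.8, 13.8 and 13.7 CPM in library B of these groups. The other 6 libraries lay between 4.78 and 16.2 CPM. It was chosen after its values were seen and was called between genotypes at neither time after STZ.

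Ifit1bl1 and Ifit1bl2, neighbours of Ifit1 on chromosome 19, changed differently between the times in knockout islets. Ifit1bl1 measured 12.2 and 10.4 CPM at 24 h and 9.79 and 7.59 CPM at 4 wk, and Ifit1bl2 5.72 and 5.12 CPM and then 110 and 85.0 CPM. Fabp2, a marker of enterocytes, measured 121 and 102 CPM and then 3049 and 2068 CPM in the same libraries.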
